A study of Mus musculus with 36 samples.

Results

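MicroRNA (miRNA) counts were used to compare, miRNA by miRNA, what loss of AGO2 and joint loss of AGO1, AGO3 and AGO4 did to mouse T helper 2 (Th2) cells. The quantity described is a difference of effects: the log2 fold change of AGO2 knockout over its control, minus the log2 fold change of AGO1/3/4 knockout over its control. A value above 0 means that a miRNA stood higher after AGO2 loss, relative to its own control, than after AGO1/3/4 loss. The comparison used 15 of the 36 libraries of the series and tested 376 mature miRNAs. The AGO2 side had 3 control libraries (A to C), with genotype CD4Cre;R26LSLeYFP, and 4 knockout libraries (D to G), with genotype CD4Cre;R26LSLeYFP;AGO2f/f. Both AGO2 groups thus carry the Cre transgene, driven in the T lineage by Cd4 sequences, and the eYFP reporter. They are called Cre and AGO2 knockout below. The AGO1/3/4 side had 4 wild-type (WT) libraries and 4 AGO134-/- libraries, each numbered 1 to 4 and carrying no Cre by their labels. All were CD4+ TCRb+ T cells of C57BL/6J mice that had been sorted from spleen and grown as Th2 cells. The sample labels place the AGO2 experiment at day 5 of culture and the AGO1/3/4 experiment at day 7, while the series text gives 7 days for both. Experiment and day therefore differ together with the knockout, and the 3 cannot be told apart in any value below. Whether replicate libraries come from separate animals is not stated, and p-values then reflect only the spread between these libraries. The sources used here give no age or sex of the mice.

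Argonaute proteins hold mature miRNAs and carry them to partly matching sites in mRNAs, which are then repressed. A miRNA hairpin yields a strand from each arm, and the strand kept by an Argonaute is normally the stable one. AGO2 is the mouse Argonaute that cuts RNA efficiently, and it is needed to mature a few hairpins that bypass Dicer. In T cells, activation lowers some miRNAs of the resting state, such as miR-150, and raises others, such as miR-155 and the miR-17-92 cluster.

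The mature sequences of the miRNAs on which the comparison turned are printed here, 5′ to 3′, from RefSeq with build GRCm38.p6. RefSeq sequences matched 303 of the 376 miRNAs tested. Capitals mark the seed, bases 2 to 8, which sets most of the target choice. The first set stood higher after AGO2 loss relative to AGO1/3/4 loss.
miR-150-3p: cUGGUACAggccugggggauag
miR-25-5p: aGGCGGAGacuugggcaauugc
miR-92a-1-5p: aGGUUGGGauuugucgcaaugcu
miR-30e-3p: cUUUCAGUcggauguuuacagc
miR-16-5p: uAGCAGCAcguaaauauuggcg
miR-322-5p: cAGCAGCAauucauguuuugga
The second set stood lower. It holds pairs with a common seed, miR-212-3p with miR-132-3p and miR-98-5p with let-7d-5p.
miR-212-5p: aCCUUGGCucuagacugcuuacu
miR-212-3p: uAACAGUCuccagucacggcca
miR-132-3p: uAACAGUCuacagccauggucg
miR-298-5p: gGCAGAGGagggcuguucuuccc
miR-99b-5p: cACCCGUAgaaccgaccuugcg
miR-98-5p: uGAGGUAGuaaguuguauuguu
let-7d-5p: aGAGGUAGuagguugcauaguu
miR-7a-5p: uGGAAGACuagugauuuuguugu
The third set shares a single seed, and its members differed in direction.
miR-181a-5p: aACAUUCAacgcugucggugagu
miR-181b-5p: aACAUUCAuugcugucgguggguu
miR-181d-5p: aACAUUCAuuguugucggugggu

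The libraries differed in depth and in make-up. A Cre library held 39794 to 58357 miRNA counts, an AGO2 knockout library 11218 to 40720, a WT library 215215 to 273724 and an AGO1/3/4 knockout library 125803 to 190976. AGO2 knockout library E was the shallowest and had 52.3% of its miRNA counts at the single entry miR-5099, against 11.8% to 21.4% in the other AGO2 knockout libraries. The shallower AGO2 side had a median standard error (SE) of 0.54 for its log2 effects, against 0.23 on the AGO1/3/4 side. The control groups were themselves unlike: mean log2 levels of Cre and WT correlated across the 376 miRNAs with Pearson r = 0.82. Within the experiments, r was 0.913 for Cre with AGO2 knockout, on the shallower side, and 0.992 for WT with AGO1/3/4 knockout. The myeloid markers miR-223-3p and miR-223-5p were at 0 in all 15 libraries. The summed level of 11 epithelial, liver and muscle markers was 360 to 402 CPM (counts per 1e6 miRNA counts) in Cre, 384 to 589 in AGO2 knockout, 8968 to 9493 in WT and 7703 to 9127 in AGO1/3/4 knockout. Its leading member was miR-192-5p in every group. The 7 endothelial and stromal markers summed to 53.8 to 126 CPM in Cre, 0 to 217 in AGO2 knockout, 985 to 1298 in WT and 654 to 1006 in AGO1/3/4 knockout. The 6 T cell markers were present in every group, led by miR-155-5p in the AGO2 experiment and by miR-150-5p in the AGO1/3/4 experiment. The part of these marker levels in the results was not tested. In bulk RNA, fewer cells of a type and less RNA per cell cannot be told apart.

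The differences of smallest p included a rise of both strands of the miR-150 hairpin, of miR-25-5p and of miR-92a-1-5p after AGO2 loss, and a fall of both strands of miR-212 and of miR-298-5p. The AGO1/3/4 effects of these miRNAs were smaller in size, and of them the one for miR-298-5p was called. A miRNA was called when its adjusted p was under 0.05 in edgeR's quasi-likelihood test over all 376 miRNAs. The difference of effects was called for 87 miRNAs, 23.1% of those tested, with 38 higher (10.1%) and 49 lower (13%). The AGO2 effect alone was called for 101 (26.9%), with 40 higher (10.6%) and 61 lower (16.2%), and the AGO1/3/4 effect for 24 (6.38%), with 3 higher (0.798%) and 21 lower (5.59%). The AGO1/3/4 count fell to 9 when AGO1/3/4 knockout library 4 was left out. The 2 experiments differ in depth, so their counts of calls are not a measure of which knockout did more.

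Most of the called differences lay on the AGO2 side. Of the 87, the AGO2 effect was called and the AGO1/3/4 effect was not in 72, both were called in 3, and neither was called in 9. The remaining 3 had only the AGO1/3/4 effect called, and they were let-7a-1-3p, let-7c-2-3p and miR-130b-5p. In 59 of the 87, the fitted effects had opposite signs, and 79 of the differences were larger than 1 on the log2 scale. Both counts are favoured by picking miRNAs for a gap between the effects. Only 1 miRNA was called in opposite directions by the single effects. Of the 376 miRNAs, 210 averaged under 10 counts in both Th2 groups of the AGO2 experiment, and 18 of those were called. Of the 210, 17 had 0 counts in all 7 Th2 libraries of that experiment, and their AGO2 effect could not be measured.

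Across all miRNAs the fitted effects showed almost no common pattern. Their correlation was r = 0.098 (Spearman rho 0.083) over 376 miRNAs, and r = 0.034 over the 111 that averaged at least 10 counts in both Cre and AGO2 knockout. These points share the libraries of each experiment and are given as a description. The sign of the fitted effects was the same for 188 of the 376 miRNAs. The 17 with 0 counts in all 7 Th2 libraries of the AGO2 experiment had a fitted AGO2 effect of 0. They count as not the same, and they also enter the correlation over 376 miRNAs.

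**Figure D1:**
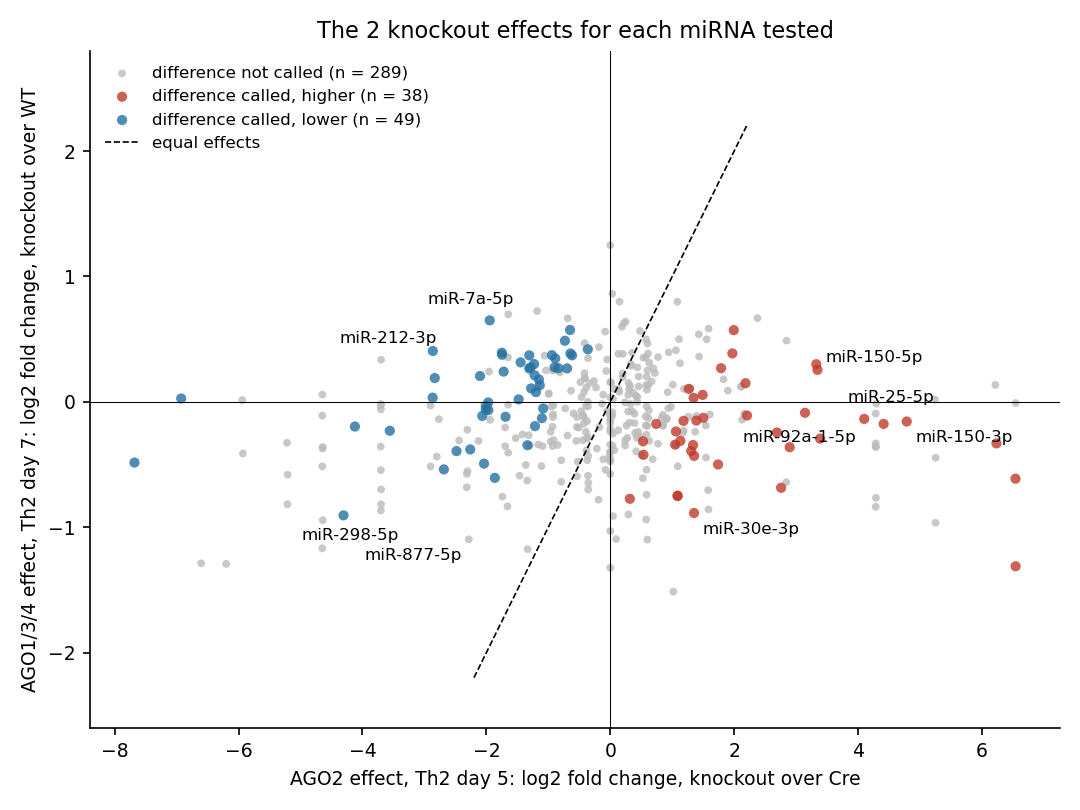
Each point is a miRNA, placed by its AGO2 effect (x axis, log2 fold change at day 5) and its AGO1/3/4 effect (y axis, log2 fold change at day 7, drawn on a wider scale), and the dashed line marks equal effects. Called differences (38 higher, 49 lower) lie to the right and left along the x axis, and vertical rows of points are miRNAs with few or 0 counts in a group of the AGO2 experiment.

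The miRNA with the smallest p was miR-150-3p, a strand of the miR-150 hairpin. Its level was 582, 494 and 409 CPM (here after TMM normalisation) in the Cre libraries A to C, and 12797, 12249, 15738 and 14213 CPM in the AGO2 knockout libraries D to G. It was 5039, 4214, 3938 and 4310 CPM in WT 1 to 4, and 3221, 4216, 4266 and 3989 CPM in AGO1/3/4 knockout 1 to 4. All AGO2 knockout libraries stood far above Cre and also above WT, while the AGO1/3/4 knockout libraries overlapped WT. Over all 376 miRNAs, AGO2 knockout lay wholly above Cre in 9.31% and wholly below it in 18.1%. AGO1/3/4 knockout lay wholly above WT in 6.91% and wholly below it in 13.8%. Every statement below that groups did not overlap stands beside these shares. The AGO2 effect was 4.79 (log2, SE 0.29) and the AGO1/3/4 effect -0.16 (SE 0.19), a difference of 4.94 (SE 0.35, edgeR adjusted p = 1.06e-16).

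miR-150-5p is the other strand of that hairpin, abundant in resting lymphocytes and known to target Myb. It lay above miR-150-3p in the Cre, WT and AGO1/3/4 knockout libraries and below it in all 4 AGO2 knockout libraries. Its level was 1189, 1030 and 817 CPM in Cre and 7772, 8514, 14670 and 10079 CPM in AGO2 knockout. It was 17576, 16332, 15189 and 15672 CPM in WT and 19833, 20563, 19175 and 17715 CPM in AGO1/3/4 knockout. The AGO2 knockout libraries did not overlap Cre, but all 4 stayed below WT. Cre is therefore the low group for this miRNA, and the AGO1/3/4 knockout libraries all lay above WT by a margin that was not called. The difference was 3.09 (SE 0.41, edgeR adjusted p = 6.55e-08), from an AGO2 effect of 3.34 (SE 0.34) and an AGO1/3/4 effect of 0.26 (SE 0.24, edgeR adjusted p = 0.568).

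miR-25-5p is the minor strand of miR-25, which lies with miR-93 and miR-106b in Mcm7 (hairpin at chr5:138165321-138165404, minus strand, GRCm38, overlapping an annotated Mcm7 exon). It was at 146, 124 and 136 CPM in Cre and at 2337, 896, 2466 and 2767 CPM in AGO2 knockout. It was at 114, 122, 82.5 and 84.0 CPM in WT and at 104, 96.4, 88.6 and 67.0 CPM in AGO1/3/4 knockout. The AGO2 knockout group stood apart from all 3 others, which lay at like levels. Only 4 to 6 raw counts underlie each Cre value, and 6 underlie that of library E. The difference was 4.24 (SE 0.41, edgeR adjusted p = 1.50e-11), whereas the main strand miR-25-3p differed by -0.25 (SE 0.30, edgeR adjusted p = 0.608).

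miR-92a-1-5p is the minor strand of miR-92a-1, the last hairpin of the miR-17-92 cluster (chr14:115044427-115044506, plus strand, within the Mir17hg transcript). Its level was 267, 268 and 68.1 CPM in Cre and 1870, 1195, 1562 and 2562 CPM in AGO2 knockout. The Cre values rest on 11, 13 and 2 raw counts, and that of library E on 8. The WT libraries had 1348, 1209, 1110 and 1173 CPM and the AGO1/3/4 knockout libraries 929, 1241, 1013 and 1388 CPM. As for miR-150-5p, the Cre group was the one that stood low, and the AGO1/3/4 knockout libraries overlapped WT. The difference was 3.23 (SE 0.39, edgeR adjusted p = 6.49e-09), and for miR-92a-3p, the main strand of this and a second hairpin, it was 0.29 (SE 0.45, edgeR adjusted p = 0.697).

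In the other direction, miR-212-5p and miR-212-3p come from the same hairpin, which neighbours miR-132 (chr11:75173388-75173478, plus strand, in an intron of 1700016P03Rik). The miR-132/212 cluster is known to be transcribed in response to stimulation in many cells. miR-212-5p was at 5094, 4305 and 3438 CPM in Cre and at 818, 149, 986 and 1435 CPM in AGO2 knockout. It was at 806, 904, 1042 and 1001 CPM in WT and at 717, 1124, 1183 and 1328 CPM in AGO1/3/4 knockout. Cre was the high group here, and the AGO1/3/4 knockout libraries overlapped WT. The value of library E rests on 1 count. The difference was -2.31 (SE 0.33, edgeR adjusted p = 2.13e-07), and -2.17 with library E left out.

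miR-212-3p was at 922, 1504 and 885 CPM in Cre and at 58.4, 149, 164 and 205 CPM in AGO2 knockout, where the raw counts were 1, 1, 4 and 6. It was at 130, 160, 207 and 190 CPM in WT and at 208, 233, 189 and 308 CPM in AGO1/3/4 knockout. The AGO2 knockout libraries all lay below Cre and the AGO1/3/4 knockout libraries overlapped WT. The difference was -3.27 (SE 0.46, edgeR adjusted p = 2.65e-07). miR-132-3p, which has the seed of miR-212-3p, fell as well, with a difference of -1.96 (SE 0.52, edgeR adjusted p = 0.0032).

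miR-298-5p comes from a hairpin that neighbours miR-296 on chromosome 2 (chr2:174267504-174267585 and chr2:174267047-174267125, both minus strand, with no annotated host gene on that strand). It was at 1916, 2328 and 1838 CPM in Cre and at 58.4, 0, 82.2 and 171 CPM in AGO2 knockout, where the raw counts were 1, 0, 2 and 5. It was at 1268, 1079, 806 and 948 CPM in WT and at 493, 787, 547 and 329 CPM in AGO1/3/4 knockout. Both knockout groups lay wholly below their controls. It fell in both effects, by 4.31 (SE 0.42) after AGO2 loss and by 0.91 (SE 0.19, edgeR adjusted p = 0.0012) after AGO1/3/4 loss. The gap between these falls was itself called, at -3.40 (SE 0.50, edgeR adjusted p = 3.76e-07). Its neighbour miR-296-3p moved the other way, with a difference of 1.44 (SE 0.28, edgeR adjusted p = 6.03e-05).

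miR-99b-5p, of the miR-99/100 family, was at 19550, 15202 and 18214 CPM in Cre and at 6895, 2091, 5178 and 5842 CPM in AGO2 knockout. It was at 7050, 6559, 5840 and 6712 CPM in WT and at 6714, 8577, 8143 and 10902 CPM in AGO1/3/4 knockout. The AGO2 knockout libraries did not overlap Cre, and AGO1/3/4 knockout overlapped WT. The difference was -2.14 (SE 0.31, edgeR adjusted p = 4.15e-07), and -1.98 without library E.

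**Figure D2:**
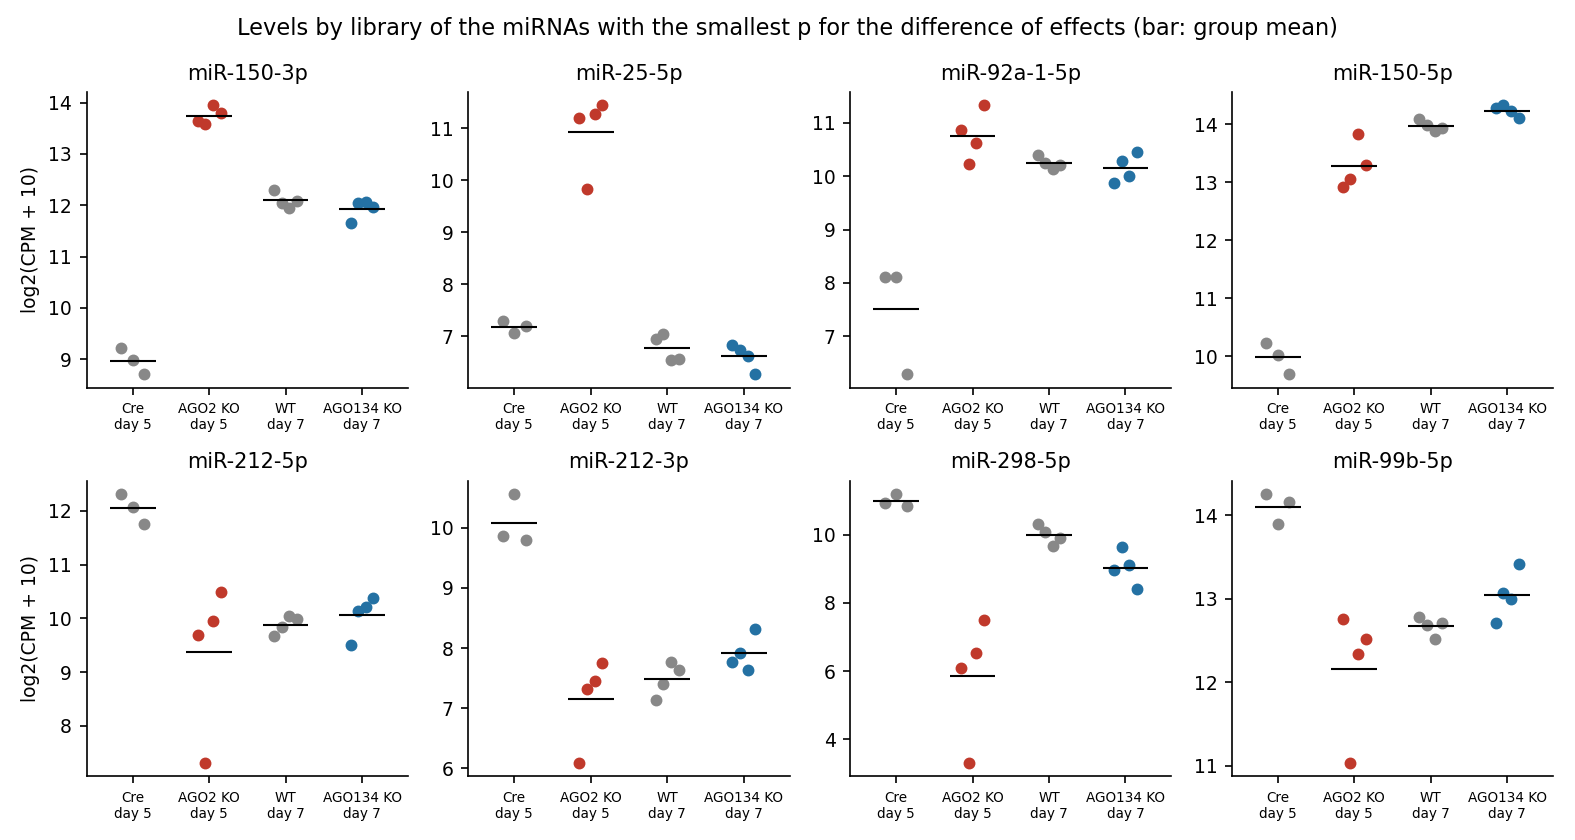
Level of 8 miRNAs in each of the 15 Th2 libraries, as log2(CPM + 10), by group, with a bar at the group mean. In the upper row the AGO2 knockout libraries stand above Cre, in the lower row below it, and the WT and AGO1/3/4 knockout libraries lie close together except for miR-298-5p.

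The other 6 miRNAs with the smallest p among the higher differences were miR-30b-3p, miR-30e-3p, miR-15a-3p, miR-296-3p, miR-16-5p and miR-1198-5p. miR-30e-3p was the one miRNA called in opposite directions by the 2 knockouts. It rose after AGO2 loss by 1.35 (SE 0.24, edgeR adjusted p = 7.17e-06), from 8417, 13306 and 9022 CPM in Cre to 27347, 14340, 26915 and 34884 CPM in AGO2 knockout. It fell by 0.89 (SE 0.21, edgeR adjusted p = 0.0046) after AGO1/3/4 loss, from 3446, 3294, 2762 and 2995 CPM to 1474, 1875, 2189 and 1193 CPM. Neither pair of groups overlapped, and the difference was 2.24 (SE 0.32). The AGO1/3/4 call for miR-30e-3p was lost without AGO1/3/4 knockout library 4.

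miR-16-5p, which restrains the cell cycle, differed by 1.44 (SE 0.28). miR-15a-3p differed by 3.26 (SE 0.50) on 3 to 5 counts per Cre library and 1 to 26 per AGO2 knockout library. The other strand, miR-15a-5p, differed by 1.38 (SE 0.53, edgeR adjusted p = 0.0524). miR-30b-3p differed by 2.32 (SE 0.31), and the other strand, miR-30b-5p, by 0.96 (SE 0.44, edgeR adjusted p = 0.117). Scaling to the STD entries, which are 9 rows that name no miRNA, ended the calls of miR-30b-3p (1.18), miR-30e-3p (1.06), miR-296-3p (0.24), miR-16-5p (0.35) and miR-1198-5p (0.13). The other higher differences given above stayed called under that scaling.

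The other 6 with the smallest p among the lower differences were miR-98-5p, miR-6236, miR-421-3p, miR-532-5p, miR-7a-5p and miR-186-5p, with differences from -1.57 to -3.33. For miR-421-3p, the raw counts in AGO2 knockout libraries D to G were 2, 0, 0 and 3. miR-98-5p, a let-7 family member, fell by 1.31 (SE 0.19) after AGO2 loss and had an AGO1/3/4 effect of 0.27 (SE 0.16). miR-7a-5p had the AGO1/3/4 effect nearest to a call in this set, 0.65 (SE 0.21, edgeR adjusted p = 0.0555), beside an AGO2 effect of -1.95 (SE 0.38). Its hairpin partner miR-7a-1-3p was called in the opposite direction, with a difference of 3.44 (SE 0.59, edgeR adjusted p = 8.29e-06) on 1 to 13 counts per library of the AGO2 experiment. miR-6236 was at 12235 to 17901 CPM in Cre and 925 to 1682 CPM in the AGO1/3/4 experiment, and it differed by -1.90 (SE 0.30). All 20 of these higher and lower differences kept their sign in every alternative tried, and all 10 lower ones stayed called.

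**Figure D3:**
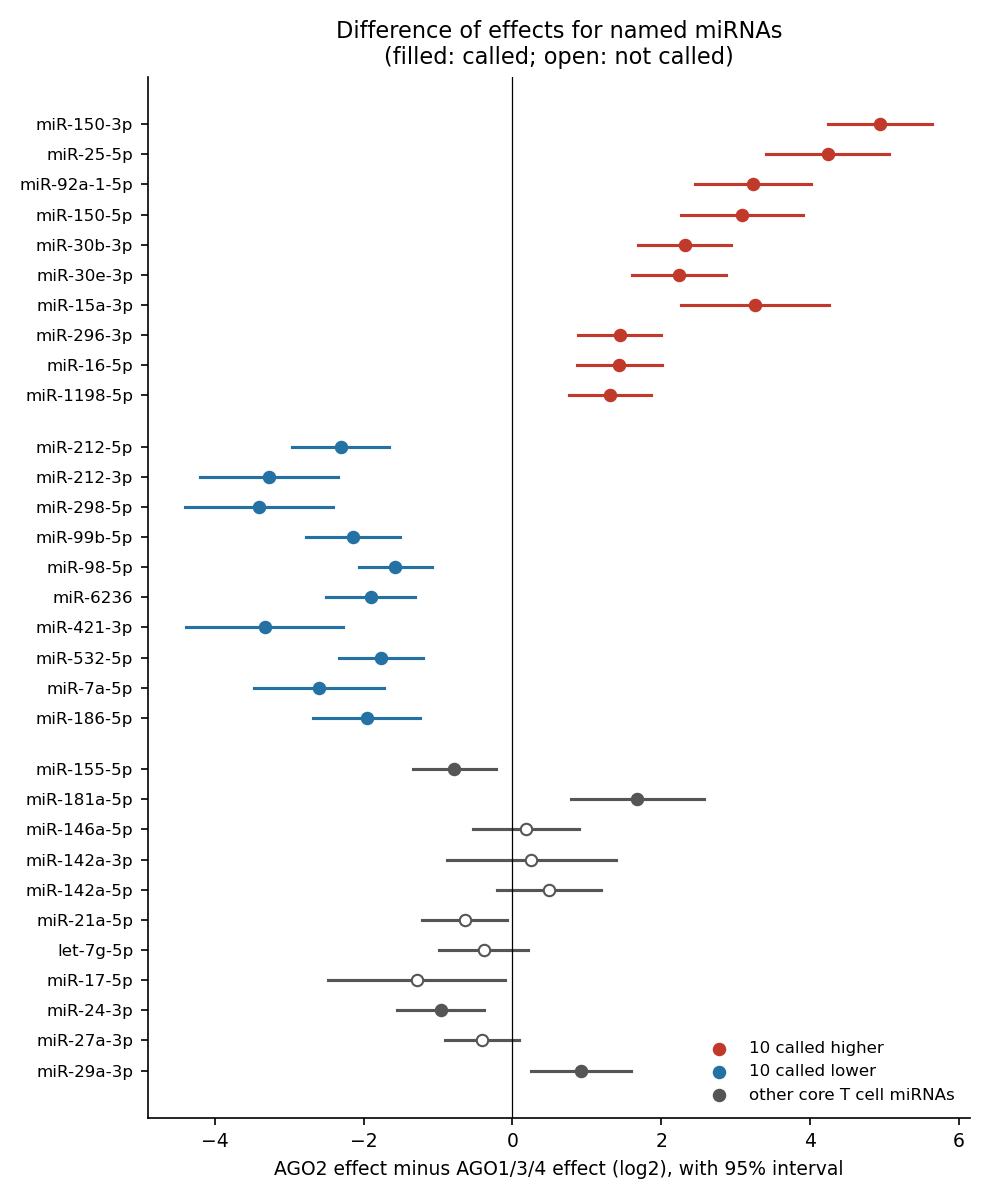
Difference of effects (x axis, log2) with its 95% interval for the 10 higher and 10 lower miRNAs of smallest p and for the other core T cell miRNAs, with filled points for called differences. The 20 miRNAs of the first groups were chosen by p, so their distance from 0 is a description, while most core T cell miRNAs have intervals that reach 0 or come close to it.

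The calls of the single effects were set side by side. The 5 miRNAs called in both were 20.8% of the AGO1/3/4 calls, near the 26.9% called for the AGO2 effect over all miRNAs, and 4.95% of the AGO2 calls. No miRNA was called higher in both by edgeR (6 at an unadjusted p under 0.05, and 1 called by DESeq2), and 4 were called lower in both: miR-298-5p, miR-877-5p, miR-328-3p and miR-301a-3p. The 4 were 19% of the 21 lower AGO1/3/4 calls, near the 16.2% called lower for the AGO2 effect over all miRNAs. miR-877-5p is made from a spliced intron of Abcf1 (a mirtron, chr17:35960730-35960814, minus strand) without Drosha. It was at 558, 433 and 545 CPM in Cre, 58.4, 149, 123 and 102 CPM in AGO2 knockout, 278, 267, 245 and 245 CPM in WT and 116, 128, 135 and 93.9 CPM in AGO1/3/4 knockout. Both knockouts lay wholly below their controls, but the AGO2 knockout values rest on 1, 1, 3 and 3 raw counts. miR-877-5p fell by 2.28 (SE 0.43) after AGO2 loss and by 1.10 (SE 0.19) after AGO1/3/4 loss, and the difference of -1.19 was not called (edgeR adjusted p = 0.0839, 95% interval -2.19 to -0.18 before adjustment). With STD scaling it was -2.28 and called. For miR-328-3p the effects were -1.74 (SE 0.44) and -0.76 (SE 0.18), and the difference of -0.98 (SE 0.50) was not called either. It reached -1.91 and a call without AGO2 knockout library F, and -2.09 and a call with STD scaling. miR-301a-3p fell by 2.69 (SE 0.51) and by 0.54 (SE 0.17, edgeR adjusted p = 0.0417), and its difference of -2.15 (SE 0.56) was called. The AGO1/3/4 call of miR-301a-3p ended under most alternatives. In AGO2 knockout libraries D to G the raw counts were 2, 0, 7 and 2 for miR-328-3p and 1, 0, 3 and 2 for miR-301a-3p.

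Among the 12 core T cell miRNAs the difference was called for 5, with 3 higher and 2 lower, beside 23.1% called over all miRNAs, 10.1% higher and 13% lower. miR-150-5p (above), miR-181a-5p and miR-29a-3p were higher. miR-181a-5p, which tunes T cell receptor signalling, was at 1261, 968 and 715 CPM in Cre, 1227, 2241, 4890 and 1469 CPM in AGO2 knockout, 6284, 5355, 5164 and 5426 CPM in WT and 4342, 4891, 4200 and 4063 CPM in AGO1/3/4 knockout. AGO2 knockout overlapped Cre, and AGO1/3/4 knockout lay wholly below WT. The difference was 1.68 (SE 0.44, edgeR adjusted p = 0.0031), but without AGO2 knockout library F it was 0.95 and not called. With STD scaling the call ended too, at 0.45. miR-29a-3p, which restrains interferon-gamma and Tbx21, differed by 0.92 (SE 0.33, edgeR adjusted p = 0.0375), and this call ended in 11 of 27 alternatives and turned to -0.20 with STD scaling.

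miR-155-5p, which supports T helper responses, and miR-24-3p, which with miR-27 is known to restrain Th2 cytokine production, were lower. miR-155-5p was at 26172, 21814 and 26759 CPM in Cre and 16069, 26589, 17341 and 18416 CPM in AGO2 knockout, and it was at 7103 to 7782 CPM in WT and 9033 to 12230 CPM in AGO1/3/4 knockout. AGO2 knockout overlapped Cre through library E, while AGO1/3/4 knockout lay wholly above WT. Neither single effect was called, at -0.36 (SE 0.21) and 0.42 (SE 0.19). The difference of -0.78 (SE 0.28, edgeR adjusted p = 0.0328) was close to the threshold. Its call ended in 14 of 27 alternatives, among them DESeq2 size factors (-0.63), loess offsets (-0.39), no filter, the 15 libraries alone, miR-5099 left out, and leaving out WT library 2 (-0.75), AGO1/3/4 knockout library 4 (-0.69), Cre library A (-0.78) or C (-0.73), or AGO2 knockout library D (-0.72), F (-0.75) or G (-0.77). miR-24-3p differed by -0.96 (SE 0.29, edgeR adjusted p = 0.0091), and by -0.76 without a call when Cre library C was left out.

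The other 7 core miRNAs were not called. Their differences were -1.29 (SE 0.59) for miR-17-5p, -0.64 (SE 0.28) for miR-21a-5p, -0.41 (SE 0.25) for miR-27a-3p, -0.39 (SE 0.30) for let-7g-5p, 0.18 (SE 0.36) for miR-146a-5p, 0.26 (SE 0.56) for miR-142a-3p and 0.49 (SE 0.35) for miR-142a-5p. miR-17-5p was called at -2.25 without AGO2 knockout library D. With STD scaling miR-17-5p (-2.37), miR-21a-5p (-1.75), let-7g-5p (-1.52) and miR-27a-3p (-1.49) were called lower. miR-27a-3p rose after AGO1/3/4 loss, by 0.60 (SE 0.16, edgeR adjusted p = 0.0093), with an AGO2 effect of 0.19 (SE 0.19). The median difference of the 12 was -0.10, beside 0.05 over all 376 miRNAs, and it turned to 0.16 with loess offsets. The SEs of miR-17-5p and miR-142a-3p are the widest of the 12, and called differences of the list such as that of miR-29a-3p would not be detectable in them.

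The counts of the lists that follow stand beside the 10.1% higher and 13% lower over all miRNAs. At an unadjusted p under 0.05 in edgeR, 56 were higher and 70 lower of all 376, and DESeq2 called 48 and 50. Of 20 tested miRNAs known to be induced by T cell activation, 0 were called higher and 7 lower, with a median of -0.66. They included miR-212-5p, miR-212-3p, miR-18a-5p and miR-132-3p, and the call of miR-18a-5p (-1.33, SE 0.35) ended without Cre library B. By their single effects, 1 of the 20 was called higher and 5 lower after AGO2 loss, and 1 higher and 0 lower after AGO1/3/4 loss. Of 16 tested miRNAs known to be lost on activation, 3 were called higher and 1 lower, with a median of 0.33 that turned to -0.73 with STD scaling. The 3 were miR-150-5p, miR-181a-5p and miR-29a-3p, all core members given above, and the 1 was miR-30c-5p at -1.56 (SE 0.31). The 0 higher calls among the induced miRNAs stayed 0 at an unadjusted p under 0.05 in edgeR and in DESeq2. Lists and families share members, so their counts are not separate evidence.

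Among 14 tested regulators of Th2 differentiation, 0 were called higher and 3 lower, namely miR-24-3p, miR-27b-3p and miR-155-5p, with a median of -0.63. At an unadjusted p under 0.05 in edgeR 0 were higher and 7 lower, and DESeq2 called 0 and 5. The call of miR-27b-3p (-1.03, SE 0.32) ended without Cre library C. Of 9 let-7 family members 2 were lower, miR-98-5p and let-7d-5p (-1.11, SE 0.28), with a median of -0.31. The let-7 sequences are nearly alike, and whether reads were shared between them was not tested, so their separate values are uncertain. Of 13 miRNAs of the miR-17-92 cluster and its paralogs, which promote T cell proliferation, 5 were lower and 0 higher (1 higher at an unadjusted p under 0.05 in edgeR, 0 by DESeq2), with a median of -0.67. They included miR-93-5p (-1.23, SE 0.29), miR-363-3p (-1.28, SE 0.32) and miR-18b-5p (-1.98, SE 0.51).

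The miR-15/16 family had 2 of 5 members higher, miR-16-5p and miR-322-5p (1.54, SE 0.38), with a median of 1.38. No member was called lower, nor at an unadjusted p under 0.05 in edgeR or by DESeq2. Both calls ended under STD scaling. In the miR-181 family, miR-181a-5p and miR-181b-5p (1.39, SE 0.45) were higher and miR-181d-5p (-1.50, SE 0.42) lower, although all 3 share a seed. The raw counts of miR-181d-5p were 13 to 25 in Cre and 1 to 8 in AGO2 knockout. The call of miR-181b-5p ended in 5 of 26 alternatives. Among them were STD scaling and leaving out Cre library C, AGO2 knockout library F or AGO2 knockout library G. With STD scaling no miR-181 member was called higher. The miR-23-27-24 clusters, with 11 tested members, had 2 higher and 3 lower. miR-23a-5p rose, with a difference of 1.52 (SE 0.34), and miR-23b-3p fell, at -1.31 (SE 0.30).

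**Figure D4:**
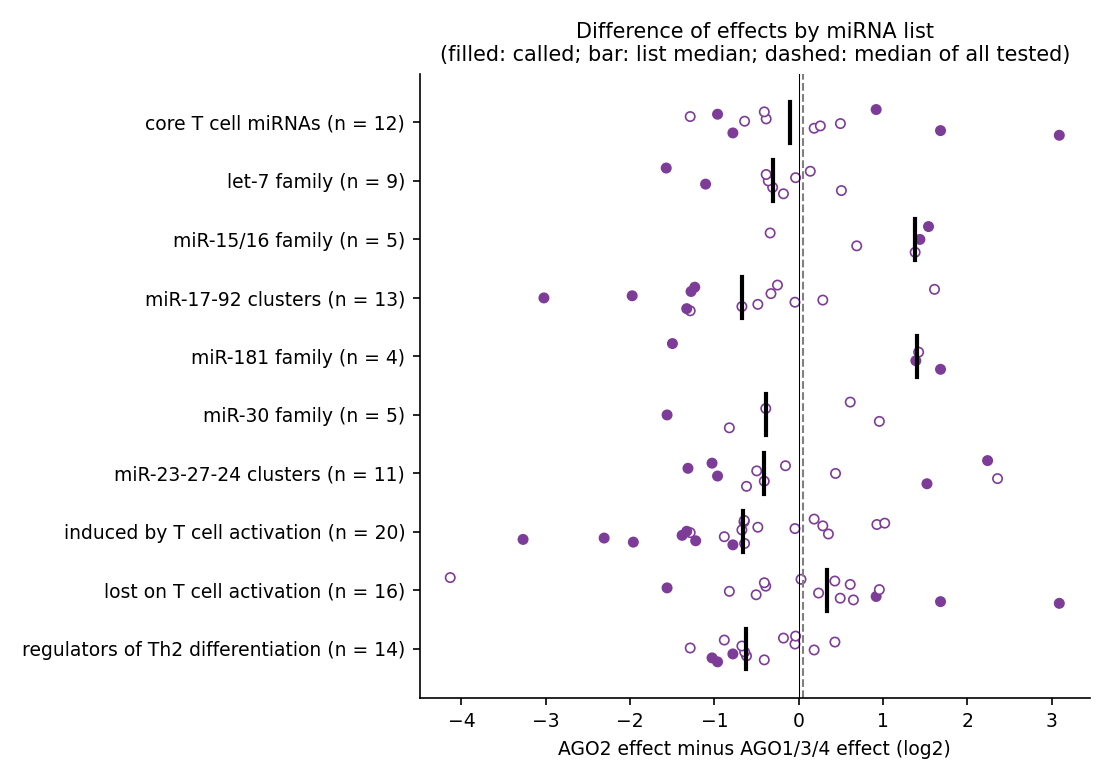
Difference of effects (x axis, log2) for each tested member of 10 miRNA lists, with filled points for called members, a black bar at each list's median and a dashed line at the median of all 376 miRNAs. The called members of the miR-17-92, activation-induced and Th2 regulator lists all lie below 0, while those of the miR-181 and miR-23-27-24 lists lie on both sides.

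Of the Drosha-independent miRNAs, 8 were tested, 1 was called lower and 0 higher. At an unadjusted p under 0.05 in edgeR 3 were lower and 0 higher, and DESeq2 called 1 and 0. The miRNA called by edgeR was miR-320-3p, which is made from a capped hairpin, with a difference of -1.27 (SE 0.27, edgeR adjusted p = 0.000174) and an AGO2 effect of -1.14 (SE 0.20). miR-484 fell by 1.09 (SE 0.32) after AGO2 loss, its AGO1/3/4 effect was -0.35 (SE 0.18), and the difference of -0.74 (SE 0.37) was not called, but reached -1.42 and a call without AGO2 knockout library G. miR-1839-5p differed by -0.30 (SE 0.34) and miR-664-5p by 0.47 (SE 0.93). With STD scaling 4 of the 8 were called lower, among them miR-484 (-1.85) and miR-1839-5p (-1.41). miR-877-3p and miR-664-3p had 0 counts in the AGO2 experiment, and miR-1839-3p had 0 in AGO2 knockout. Of the miRNAs listed as dependent on AGO2 slicing, miR-451a was at 0 in all 15 libraries, and miR-486a-5p and miR-486b-5p have identical counts. Those 2 had a mean of 8.09 CPM in Cre, 27.4 in AGO2 knockout, 65.2 in WT and 72.4 in AGO1/3/4 knockout, and the difference of 1.99 (SE 1.58) was not detectable at this depth.

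For 5 called differences a whole group had 0 counts, and no fold is given. miR-669h-5p had 17 counts over Cre and 0 over AGO2 knockout, against 165 in WT and 69 in AGO1/3/4 knockout, and miR-32-5p had 10 and 0 against 62 and 37. In the other direction, miR-139-3p had 0 counts over Cre and 5 over AGO2 knockout, let-7b-3p 0 and 5, and miR-122-5p 0 and 4. These counts are small, and a count of 0 allows up to 3 counts, or 51.4 to 75.4 CPM in a Cre library and 73.7 to 267 CPM in an AGO2 knockout library. Among 38 tested members of the large cluster in an intron of Sfmbt2, miR-669h-5p was the 1 lower and miR-466b-3p the 1 higher (1.30, SE 0.47). The call of miR-466b-3p ended in 13 of 27 alternatives, and that of miR-122-5p in 10 of 26.

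Minor strands recur among the higher differences, so arms were compared over all 110 hairpins with both strands tested. The minor arm of a hairpin is the strand with the lower total over all libraries, in which the deeper AGO1/3/4 libraries weigh most. It can be the more abundant strand of a group: miR-30b-3p is minor by this rule but had a mean of 1311 CPM in Cre, against 199 for miR-30b-5p. Of the 110 minor strands, 20 were called higher and 5 lower in the difference. Of the 103 major strands (a major strand can belong to several hairpins), 12 were higher and 28 lower. By single effect, the minor strands were 18 higher and 7 lower after AGO2 loss and 0 higher and 9 lower after AGO1/3/4 loss. Over all 376 miRNAs these were 40 and 61, and 3 and 21, so that the AGO1/3/4 counts lie near the share over all. DESeq2 also called 0 higher and 9 lower there, and edgeR had 4 higher at an unadjusted p under 0.05. The minor-strand effect was above the major-strand effect in 67 of 110 hairpins after AGO2 loss and in 30 of 110 after AGO1/3/4 loss. The AGO2 tally includes hairpins with a strand whose fitted AGO2 effect was 0 and could not be measured. These fall on both sides, with miR-877 and miR-664 among the 67 and miR-200b outside them. Among hairpins whose minor strand averaged at least 10 counts over the 15 libraries, the minor strands were called higher in 18 and lower in 4 of 78 for the difference. The deeper AGO1/3/4 libraries weigh most in that average too.

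The same contrast was measured with 1 value per library, the median over hairpins of log2(minor/major). It was -3.49, -3.65 and -3.16 in Cre and -2.81, -1.68, -3.08 and -3.08 in AGO2 knockout. It was -3.17, -2.68, -3.10 and -3.10 in WT and -3.34, -3.18, -3.06 and -3.72 in AGO1/3/4 knockout. All AGO2 knockout libraries lay above Cre, with library E farthest, and the AGO1/3/4 knockout libraries overlapped WT and reached below it. The ratio uses raw counts with a pseudocount, which can raise it in a shallow library whose minor strands have few counts. AGO2 knockout libraries averaged 28704 miRNA counts and Cre libraries 51315, and library E was the shallowest. The part of depth in the strand ratio was not tested. The group means differed by 0.77 in the AGO2 experiment and by -0.31 in the AGO1/3/4 experiment, a difference of 1.08. In the two-sided exact permutation test, with genotype labels permuted within each experiment (2450 assignments, 3 and 4 libraries against 4 and 4), the raw p was 0.0143 and the adjusted p over 9 such tests 0.0643, so that the difference did not pass. The null of this test is that neither genotype matters. The single effects had exact permutation p of 0.114 for AGO2 loss and 0.171 for AGO1/3/4 loss, where the smallest attainable p was 0.0286. At a pseudocount of 1 the difference was 1.19, with a raw exact permutation p of 0.0061, and the AGO2 change was 0.94 in place of 0.77. With the hairpins whose minor strand averaged at least 10 counts the difference was 0.78, with a raw exact permutation p of 0.0020. That average is over all 15 libraries and sets no minimum in the AGO2 experiment, where miR-1839-3p passed with 0 counts in AGO2 knockout. As a pooled share of minor-strand counts the difference was 1.34, with a raw exact permutation p of 0.000408.

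Both strands were tested for 15 hairpins that hold a miRNA of these 20. The strands had the same sign of difference in 11 of them. Both were called in the same direction in 3, which were miR-150, miR-212 and miR-16-2 (miR-16-2-3p at 1.63, SE 0.42), and in opposite directions in 1, miR-7a-1.

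Other measures touch the scale of the comparison. The ratio of miRNA counts to STD counts was 1.31, 1.72 and 1.40 in Cre and 0.508, 0.467, 0.479 and 0.701 in AGO2 knockout. It was 1.33, 1.39, 1.46 and 1.39 in WT and 1.16, 1.17, 1.19 and 0.954 in AGO1/3/4 knockout. In both experiments every knockout library lay below every control. The log2 changes of -1.46 and -0.32 each had the smallest p that the exact permutation test could give, 0.0286 (adjusted p = 0.0643 over the 9 tests). Their difference of -1.14 had an exact permutation p of 0.0751 (adjusted p = 0.135). The labels do not say what the STD entries are. Scaled to them, the median difference over all miRNAs was -0.98 in place of 0.05, and the calls were 9 higher and 108 lower in place of 38 and 49, so every direction above is relative to the rest of a library's miRNAs. The share of miRNA counts at miR-5099 differed by 0.77 on the log2 scale (exact permutation p = 0.265), with AGO2 knockout at 11.8% to 52.3%, Cre at 9.85% to 13.5%, and the AGO1/3/4 experiment at 1.44% to 1.87%.

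**Figure D5:**
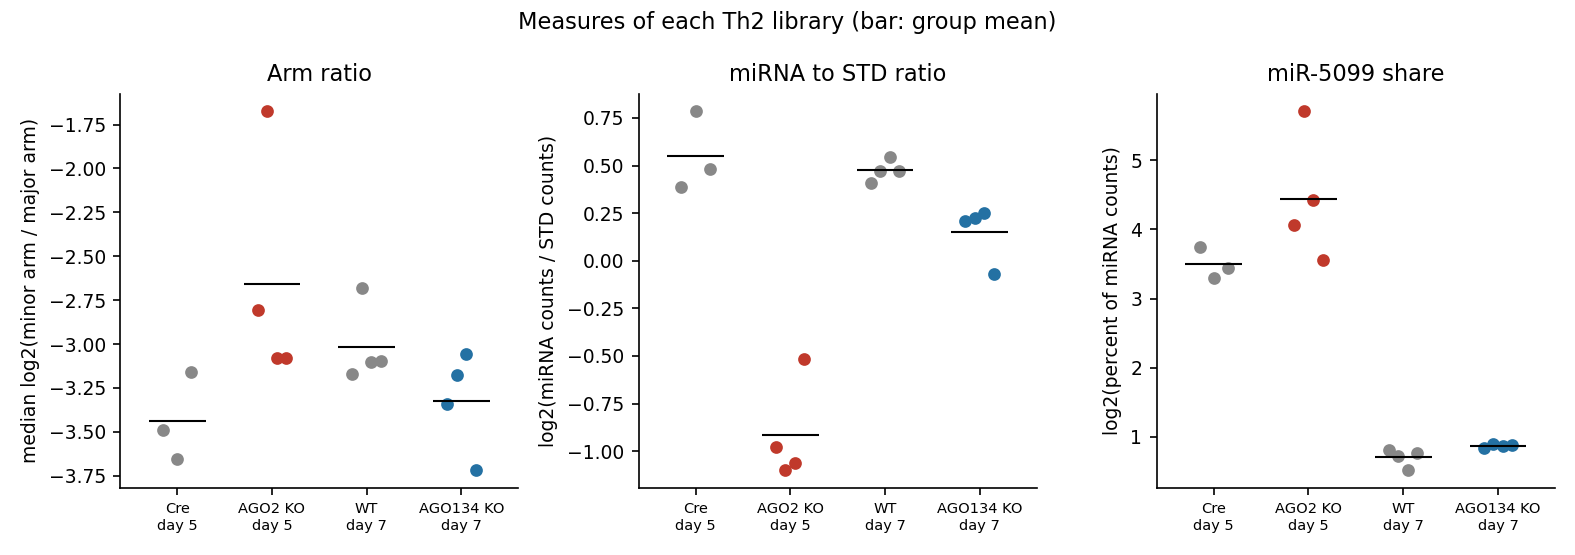
Measures of each Th2 library by group, on log2 scales, with a bar at the group mean: the median minor to major strand ratio, the miRNA to STD count ratio and the miR-5099 share. AGO2 knockout library E is the extreme point of its group for the strand ratio and miR-5099, and both knockout groups lie wholly below their controls for the STD ratio.

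Sequence features are given as a description. The median GC content was 48.9% for 34 higher and 47.8% for 42 lower miRNAs with a sequence, beside 50% for all 303. A uracil at the first base was found in 26.5% of the higher and 45.2% of the lower ones, beside 40.3% of all. Seeds did not fix the direction. miR-16-5p and miR-322-5p shared a seed and were both higher. The pairs miR-212-3p with miR-132-3p, miR-98-5p with let-7d-5p, and miR-18a-5p with miR-18b-5p were all lower. The miR-181 members were on both sides. So were miR-351-5p (-1.57, SE 0.31) and miR-125a-5p (1.16, SE 0.27), which share a seed and were both called. Other seeds shared by called miRNAs are not listed here.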

How the data were processed

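Small RNA libraries (TruSeq) of total RNA were counted by the authors, and the deposited values are whole-number counts for every locus of a mature miRNA, per the file headers. The submitters' processing notes name GRCm38. For the aligner, counter, miRNA release and use of strand, the sources used here give nothing. The 9 STD rows, 36.7% to 68.2% of the counts of these Th2 libraries, were left out. For names with several loci the row with the highest total over all libraries was kept. Counts of all 36 libraries were fitted with a mean per group (10 groups) in edgeR 4.0.16 (R 4.3.3), with TMM normalisation, filterByExpr at its minimum of 10 counts, the quasi-likelihood test and Benjamini-Hochberg adjustment. The fit was tested on simulated data. The arm ratio used a pseudocount of 0.5, and library measures used exact permutation tests in Python. Floors of 3 counts cover counting error only.

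Named miRNAs were the 10 of smallest p in each direction of the difference where a Th2 group of each experiment averaged at least 10 counts, those called in both single effects, the core list, the tested members of the Drosha-independent and AGO2-slicing lists, and up to 4 called members of the other lists. Partner strands, the miRNAs with 0 counts in a group and the 3 with only the AGO1/3/4 effect called were named after their values were seen. The same holds for miR-351-5p and miR-125a-5p. The members and lists were chosen with earlier results of these data known. Lists not described above had these counts for the difference: the miR-29 family 1 higher and 0 lower of 3, the miR-30 family 0 and 1 of 5, the neural markers 0 and 0 of 2, the red cell and platelet markers 0 and 0 of 1, the endothelial and stromal markers 0 and 0 of 3, and the epithelial, liver and muscle markers 1 and 0 of 7. Alternatives are DESeq2 size factors, library size or STD scaling, loess offsets, DESeq2 1.42.0, other filters, the 15 libraries alone, all locus rows, leaving out miR-5099, a replicate block and leaving out each library. TMM within each experiment was added after seeing the data.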

Additional observations from a re-analysis of the deposited data

Results flagged for a closer look

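In the groups of 4 libraries, a value was marked where its gap to the nearest library, over the range of the group, passed Dixon's 95% critical value. This was applied to 59 miRNAs and 3 library measures, in 186 tests, and marked 11, where chance marks about 1 in 20.

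AGO2 knockout library E, the shallowest, was marked for 4 miRNAs. It had 1942 CPM of miR-30b-3p, where the other 3 libraries had 6603 to 7232, and 3884 CPM of miR-146a-5p, where they had 17121 to 19026. It had 7469 CPM of miR-6236, against 2918 to 3272, and 25543 CPM of miR-142a-3p, against 6821 to 9772. Without library E the differences of effects were 2.50 for miR-30b-3p, 0.43 for miR-146a-5p, -2.22 for miR-6236 and -0.31 for miR-142a-3p, beside 2.32, 0.18, -1.90 and 0.26 with it.

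AGO1/3/4 knockout library 4 was marked for 4 values. It had 10540 CPM of miR-98-5p, against 9522 to 9666 in the other 3 libraries, 9347 CPM of miR-27a-3p, against 6429 to 6890, and 1375 CPM of miR-132-3p, against 655 to 687. Its miRNA to STD ratio was 0.954, against 1.16 to 1.19.

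WT library 1 had 20504 CPM of miR-16-5p, where the other 3 had 17571 to 17732, and 11199 CPM of miR-24-3p, where they had 9578 to 9779. WT library 2 had a median log2 strand ratio of -2.68, where the other 3 had -3.17 to -3.10.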

How the results depend on the processing

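The number of called differences ran from 72 to 117 over all alternatives, beside 87, and 58 of the 87 were called with STD scaling, which shifts the median of all miRNAs by -1.03. The AGO2 count moved to 196 and the AGO1/3/4 count to 94 with STD scaling, and the latter to 11 when only miRNAs averaging at least 10 counts in a Th2 group of the AGO2 experiment were tested. Splits into higher and lower that moved were, for the difference, 9 and 108 with STD scaling and 46 and 39 with that filter. For the AGO2 effect they were 8 and 188 with STD scaling, 56 and 53 with loess offsets and 56 and 50 without miR-5099. For the AGO1/3/4 effect they were 0 and 94 with STD scaling, 0 and 32 with library size alone, 7 and 16 with the 15 libraries alone, 7 and 19 with TMM within each experiment (an alternative chosen after seeing the data), 5 and 16 with no filter and 0 and 11 with the filter above.

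Leaving out each library in turn gave 72 to 89 called differences, 86 to 102 AGO2 calls and 9 to 26 AGO1/3/4 calls, the 9 without AGO1/3/4 knockout library 4. It gave strand-ratio differences of 0.76 to 1.22, STD-ratio differences of -1.28 to -1.03 and miR-5099 differences of 0.35 to 1.07. The strand-ratio difference missed the adjusted threshold as reported and passed it at 1.34 as a pooled share and at 0.78 for hairpins whose minor strand averaged at least 10 counts, and the miR-5099 difference was -0.37 with the STD entries as denominator.

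Among values with a call before or after, directions reversed with STD scaling and under no other alternative tried. The difference for miR-29a-3p became -0.20. AGO2 effects became -0.30 for miR-30e-3p, -0.58 for miR-296-3p, -0.11 for miR-16-5p, -0.36 for miR-1198-5p, -0.39 for miR-181a-5p, -1.06 for miR-146a-5p, -1.24 for miR-142a-3p, -1.04 for miR-142a-5p, -1.45 for miR-27a-3p, -0.89 for miR-29a-3p, -0.26 for miR-322-5p and -0.57 for miR-466b-3p. The cause was not tested. Over all named miRNAs and alternatives, 4542 values kept their side of the threshold, and the called ones among them kept direction. Of the rest, 122 lost a call, 70 gained one and 13 reversed. Uncalled values among the 4542 could change sign, as the difference for miR-142a-3p did without AGO2 knockout library E.

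WT and AGO1/3/4 knockout share replicate numbers, but same-numbered libraries correlated at 0.119, 0.110, 0.124 and 0.097, so the numbers were not taken to pair them. Not every library correlated best with its own number. A replicate block gave 88 called differences, 98 AGO2 calls and 24 AGO1/3/4 calls. The AGO2 groups share no replicate labels. Depth limits precision, and the shallower AGO2 side had a median SE of 0.54, against 0.23. The parts of depth, library number and spread between libraries in that SE were not tested.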
